A study of Mus musculus with 17 samples.

Results

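The contacts described here are those that the mouse beta-globin locus made on chromosome 7 at mid-range, more than 200 kb and at most 2 Mb from the fragment that was captured. They came from Tri-C, in which cross-linked chromatin is cut with NlaIII and ligated, and reads holding a chosen fragment, the viewpoint, are enriched with oligonucleotides. Each entry of the deposited tables is a pair of other fragments found in a read with the viewpoint, with its count in every library. The viewpoints were HS2, an element of the locus control region, and a CTCF site 54.357 kb away from it, called beta CTCF below. An entry belonged to the set when at least 1 of its fragments lay on chromosome 7 with its midpoint in that distance range; fragments over 1 Mb long were left out. Distances were taken from the viewpoint centres, at chromosome 7 position 111009846 for HS2 and 110955489 for beta CTCF (mm9). This gave 104462 fragment pairs of the 1033519 in both beta-globin tables, of 1997429 in the whole series. HS2 gave 33631 of them and beta CTCF 70831.

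The study compared cells in which the globin genes are active with cells in which they are inactive. The active cells were Ter-119+ erythroid cells, isolated from spleen; the donors were female C57BL/6 mice that had received 3 doses of phenylhydrazine at 12 h intervals, a drug that causes anaemia, and were killed after 5 days. Ter-119 is a surface marker of erythroid cells. The inactive cells were mouse embryonic stem (ES) cells of the line E14, of 129/Ola origin and untreated as far as the labels say. They stand for a single line. Cell type and strain therefore cannot be told apart in any comparison below. Technical replicates (10 erythroid and 7 ES libraries) were summed to 3 biological replicates per cell type, and n = 3 throughout unless stated. Whether these come from separate animals or cultures is not stated, and if not, the tests below reflect only technical spread. The assay reads DNA contacts, so that the cell type labels could not be set against marker gene expression.

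The beta-globin cluster holds embryonic and adult beta-like genes and, at its upstream end, the locus control region, a group of enhancers that erythroid cells need for high beta-globin expression. CTCF binds DNA and halts the extrusion of chromatin loops, and CTCF sites flank the cluster. The cluster is embedded in arrays of olfactory receptor genes, which are silent in most tissues outside the olfactory epithelium. Contact frequency along a chromosome generally falls with distance from a viewpoint, at a rate that depends on how the fibre is folded into domains and compartments.

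Seen from HS2, lower coordinates are the side of the adult globin genes and of the beta CTCF site, and higher coordinates the side beyond the locus control region. Seen from beta CTCF, the adult globin genes and HS2 lie on the higher side. By gene order in the RefSeq table of GRCm38.p6, which was used for names only, the first 50 protein-coding genes on the lower side include 48 olfactory receptor genes, and those on the higher side 32. The first 5 genes of other kinds on the lower side are Usp17lc, Usp17ld, Trim68, Trim21 and Rrm1, the last of which encodes the large subunit of ribonucleotide reductase and has 73 olfactory receptor genes before it.

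The total count per replicate ranged from 84849 to 464338 at HS2 and from 93686 to 1082506 at beta CTCF. Pairs with both fragments on chromosome 7, to which all levels below are scaled, numbered 51238 to 198173 at HS2 and 56636 to 484111 at beta CTCF. At HS2 they made up 31.5% ± 9.88 (SD, n = 3) of all pairs from erythroid cells and 52.7% ± 7.24 from ES cells. At beta CTCF these shares were 35.7% ± 8.27 and 49.3% ± 11.5. In the mid-range, a distinct fragment pair was counted 3.69 to 5.26 times per replicate at HS2 and 4.66 to 6.82 times at beta CTCF. The pairs are not all independent molecules, so the precision was taken from the spread of replicates and not from the counts.

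The ES replicates differed from each other in 1 stretch of the higher side. In chr7:111400001-111480000 (mm9), chosen after its values were seen, HS2 had 30.5 contacts per 1000 chromosome 7 pairs in ES replicate 1 but 4.39 and 7.07 in ES replicates 2 and 3. The erythroid replicates had 10.1, 6.13 and 11.9 there. In the 80 kb just below, the ES replicates were at 44.2, 32.9 and 48.3, and in the 80 kb just above at 26.5, 27.8 and 30.5, so ES replicates 2 and 3 were low in the stretch but not beside it. Of 287 distinct fragments seen in the stretch, the ES replicates covered 245, 32 and 49. From beta CTCF the ES replicates gave 22.4, 5.99 and 6.66 in the stretch, 40.1, 38.6 and 43.1 below it and 26.7, 22.5 and 27.2 above it. Both replicates were more than 3 times below ES replicate 1 in 1 of 72 bins at each viewpoint. Apart from this, ES replicate 1 was the lowest ES replicate in every lower-side band from 200 kb to 1.5 Mb, as the values below show. Results are given with all replicates, and without ES replicate 1 where it matters. The cause was not tested.

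Mid-range contacts took a much larger part of the chromosome 7 contacts of the beta locus in ES cells than in erythroid cells. From HS2, the erythroid replicates had 13.43, 13.99 and 13.82 mid-range pairs per 100 chromosome 7 pairs, and the ES replicates 41.5, 46.1 and 55.4. The means were 13.7 ± 0.286 and 47.7 ± 7.07 (SD), a 3.47-fold difference, and the groups did not overlap. From beta CTCF the erythroid values were 22.0, 21.3 and 18.5 and the ES values 45.9, 57.5 and 64.9. These means were 20.6 ± 1.83 and 56.1 ± 9.58, a 2.72-fold difference, again without overlap. The exact two-sided permutation test gave p = 0.1 at each viewpoint, the smallest value that 3 replicates against 3 allow. Without ES replicate 1, the ES means were 50.7 at HS2 and 61.2 at beta CTCF.

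These values include pairs whose other fragment lay on another chromosome. Counting only pairs with both fragments on chromosome 7, the mid-range took 10.7% ± 0.837 in erythroid and 41.0% ± 4.97 in ES cells at HS2, and 17.0% ± 1.22 and 47.9% ± 7.19 at beta CTCF. The classes share 1 denominator, so a class that is larger makes the others smaller. Pairs with both fragments within 200 kb of HS2 took 40.7% ± 2.07 in erythroid cells and 27.1% ± 7.21 in ES cells, and pairs with both fragments beyond 2 Mb took 37.4% ± 1.84 and 25.8% ± 2.71. At beta CTCF the pairs within 200 kb took 32.7% ± 5.68 and 25.4% ± 6.16, where the groups overlapped, and the pairs beyond 2 Mb took 38.0% ± 3.37 and 20.6% ± 1.85.

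The difference between the cell types depended on distance. From HS2 towards lower coordinates, ES contacts stayed high as far as about 1.4 Mb and then dropped, whereas erythroid contacts fell before 500 kb and were then flat. At 200 to 500 kb the level was 5.39, 7.46 and 5.09 contacts per 1000 chromosome 7 pairs per 50 kb in the erythroid replicates and 16.3, 20.0 and 20.1 in the ES replicates. At 0.5 to 1.0 Mb the erythroid replicates had 1.97, 2.26 and 2.41 and the ES replicates 11.4, 17.4 and 18.7, a 7.15-fold difference of the means. At 1.0 to 1.5 Mb the erythroid replicates had 3.18, 2.45 and 2.42 and the ES replicates 10.1, 15.7 and 15.9. In these 3 bands every ES replicate lay above every erythroid replicate. At 1.5 to 2.0 Mb the groups overlapped, with 2.61, 2.68 and 2.93 in erythroid and 2.17, 1.69 and 3.17 in ES cells.

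Towards higher coordinates, ES contacts from HS2 fell from band to band. The band means were 22.4 ± 1.94, 9.41 ± 1.16, 4.92 ± 0.768 and 3.52 ± 0.768 in ES cells, from the nearest band to the farthest. In erythroid cells they were 5.45 ± 1.30, 1.56 ± 0.211, 0.978 ± 0.220 and 2.24 ± 0.149. The erythroid level was thus lowest at 1.0 to 1.5 Mb and higher again in the farthest band, in each of the 3 replicates.

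Beta CTCF had the same order of levels with a crossing in the farthest band. Towards lower coordinates its erythroid band means were 9.70 ± 1.66, 2.89 ± 0.360, 3.65 ± 0.416 and 3.18 ± 0.371. The ES means were 30.4 ± 7.93, 19.6 ± 6.23, 15.5 ± 4.09 and 1.24 ± 0.201. In the farthest band the replicates had 3.34, 3.44 and 2.76 in erythroid and 1.05, 1.22 and 1.45 in ES cells, so that the order of the cell types was turned round without overlap. Towards higher coordinates the erythroid means were 10.1 ± 0.167, 3.36 ± 0.265, 1.10 ± 0.220 and 3.11 ± 0.167, and the ES means 24.3 ± 1.13, 9.77 ± 0.275, 6.06 ± 1.28 and 2.70 ± 0.116. In the farthest of these bands erythroid replicates again lay above ES replicates, by a smaller margin (2.95 to 3.29 against 2.57 to 2.78). Of the 10 bins in that band, 0 were called higher in the test by bin described below. The margin may depend on the scaling. With the whole table as library size, the median log2 change over the mid-range bins of beta CTCF moved from -1.81 to -2.31.

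**Figure D1:**
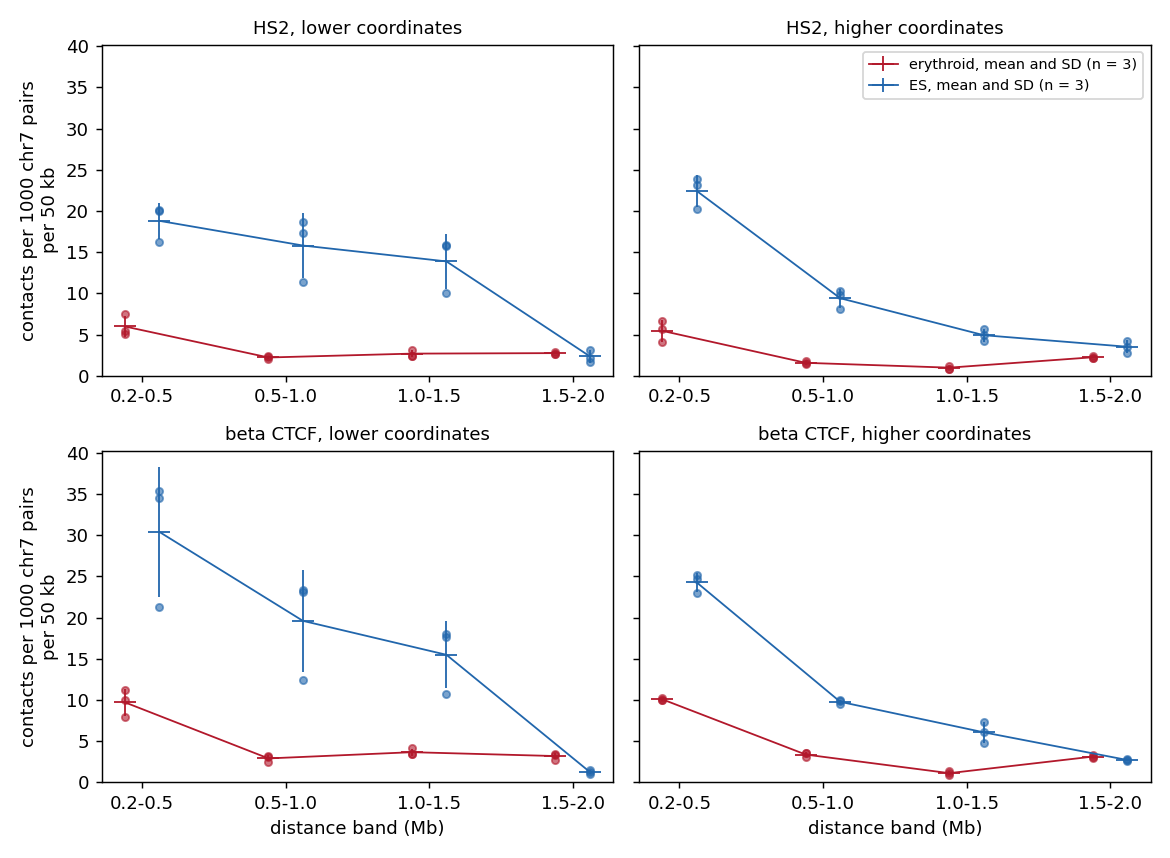
Contacts per 1000 chromosome 7 pairs per 50 kb (vertical axis) in 4 distance bands in Mb (horizontal axis), for each viewpoint and side; points are replicates, horizontal ticks and bars the mean and SD of 3 replicates, in red for erythroid and blue for ES cells. ES values lie above erythroid values in every band up to 1.5 Mb, and at 1.5 to 2.0 Mb on the lower side of beta CTCF they lie below, at 1.24 ± 0.201 against 3.18 ± 0.371.

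The drop between the outer bands was compared as the log2 ratio of contacts at 1.0 to 1.5 Mb over those at 1.5 to 2.0 Mb, a measure added after the profile was seen. From HS2 it was -0.26, -0.53 and -0.55 in the erythroid replicates, where contacts were fewer in the nearer band, and 1.54, 1.98 and 1.53 in the ES replicates. From beta CTCF it was -0.28, -0.57 and -0.38 in erythroid and 2.02, 2.67 and 2.57 in ES cells. The groups did not overlap at either viewpoint (exact permutation p = 0.1, the smallest possible). In ES cells the ratio was larger on the lower side, 2.58 against 0.50 on the higher side at HS2 and 3.62 against 1.15 at beta CTCF. In erythroid cells the means were -0.04 on the lower and -1.22 on the higher side at HS2, and 0.20 and -1.52 at beta CTCF.

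The ES drop on the lower side fell at the same place on the chromosome from both viewpoints, to within the width of a bin. Over the 5 bins just inside it from HS2 (chr7:109609846-109859845) the ES level was 17.0 ± 4.17 per bin, and over the 5 bins just outside (chr7:109359846-109609845) 5.50 ± 0.889. The inside level was 2.49, 3.80 and 2.98 times the outside level in the ES replicates and 1.22, 1.14 and 0.879 times in the erythroid replicates. From beta CTCF, with the edge at position 109605489, the ratio was 4.27, 4.91 and 5.07 in ES and 1.15, 1.05 and 1.06 in erythroid replicates. The edge was placed after the profiles were seen, and these values are given as a description with no test.

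**Figure D2:**
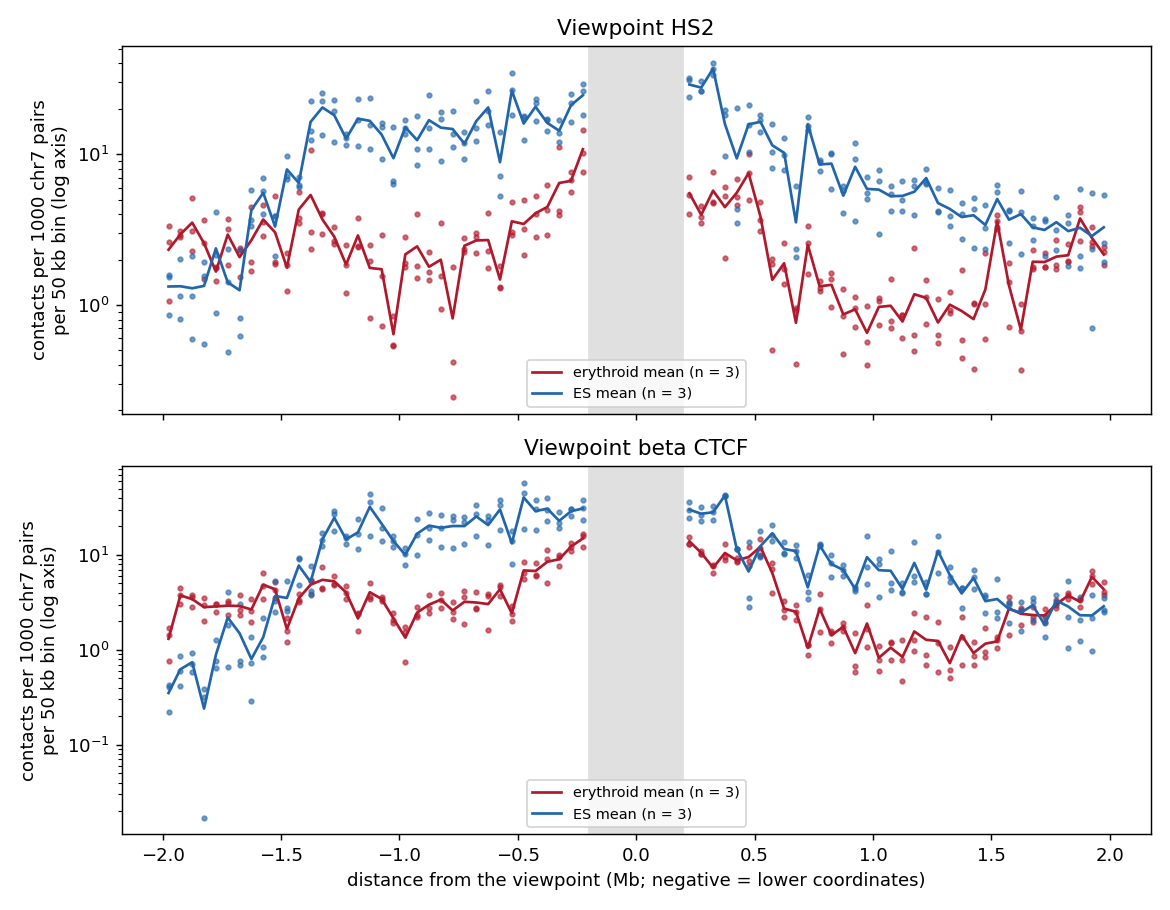
Contacts per 1000 chromosome 7 pairs in each 50 kb bin (vertical log axis) against distance from the viewpoint in Mb (negative: lower coordinates); points are replicates and lines the means of 3 replicates, red for erythroid and blue for ES cells, and the stretch within 200 kb is grey. On the lower side the ES line stays high out to about 1.4 Mb and then drops. It lies below the erythroid line throughout beyond 1.8 Mb at HS2 and beyond 1.5 Mb at beta CTCF. On the higher side the ES line falls unevenly, with a dip near 0.4 to 0.5 Mb.

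A power law fitted to all 72 bins of a viewpoint, by Poisson regression of the count on log distance, gave a shallower decay in erythroid than in ES cells. The exponent at HS2 was -0.55, -0.68 and -0.54 in the erythroid replicates and -0.96, -0.85 and -0.81 in the ES replicates. At beta CTCF it was -0.81, -0.91 and -0.83 in erythroid and -1.04, -1.01 and -0.97 in ES cells. The difference of means was 0.29 at HS2 and 0.16 at beta CTCF, without overlap (exact permutation p = 0.1 each). The order was turned round when the fit was limited to 300 kb to 1.5 Mb, with differences of -0.25 and -0.34. The exponent therefore describes the chosen range and not a single rate. The median distance of mid-range fragments was 847 kb in erythroid and 713 kb in ES cells at HS2, and 615 kb and 653 kb at beta CTCF.

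Over the whole mid-range the lower side held more contacts than the higher side in most replicates, but the cell types were not told apart by it. The log2 ratio of lower over higher was 0.49, 0.77 and 0.20 in erythroid and 0.19, 0.62 and 0.54 in ES cells at HS2 (exact permutation p = 0.9). At beta CTCF it was 0.22, 0.37 and -0.03 in erythroid and 0.25, 0.93 and 0.86 in ES cells (exact permutation p = 0.2). ES replicate 1 was the lowest ES value at both viewpoints. Without it the difference at beta CTCF was -0.71, and the groups did not overlap.

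The balance between the sides changed along the distance. At 1.0 to 1.5 Mb the lower side was higher in all 12 replicate profiles, with mean log2 ratios of 1.47 in erythroid and 1.48 in ES cells at HS2 and 1.74 and 1.34 at beta CTCF. At 1.5 to 2.0 Mb it was 0.29 in erythroid and -0.61 in ES cells at HS2, and 0.02 and -1.14 at beta CTCF, with no overlap at either viewpoint. At 0.5 to 1.0 Mb from beta CTCF, ES cells favoured the lower side with 0.34, 1.21 and 1.30, while the erythroid replicates had -0.15, -0.01 and -0.50. From HS2 the same band had 0.53, 0.55 and 0.43 in erythroid and 0.49, 0.82 and 0.86 in ES cells.

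Each 50 kb bin of chromosome 7 was then tested for a difference between the cell types with edgeR's quasi-likelihood test, with Benjamini-Hochberg adjustment over all bins of the chromosome that passed a minimum of 50 counts. All 72 mid-range bins of each viewpoint passed it. From HS2, 45 of 72 bins were lower in erythroid cells at an adjusted p under 0.05 and 0 were higher. DESeq2 called 50 lower and 0 higher, against 211 called in either direction of all 2362 bins tested. An unadjusted p under 0.05 was reached with edgeR by 53 of the 72 bins in either direction. The share of all bins that reached it was not computed. Over all 2362 bins tested, edgeR called 5.38% at an adjusted p under 0.05, 1.99% as lower and 3.39% as higher. Of the 47 bins called lower anywhere on the chromosome, the mid-range thus held 45. From beta CTCF, 43 of 72 bins were lower and 4 were higher, against 6.27% called of 2678 bins tested, 1.79% as lower and 4.48% as higher. The median log2 change was -2.25 at HS2 and -1.81 at beta CTCF, beside 0.53 and 0.63 over all bins tested. Without ES replicate 1, 46 bins were called at each viewpoint. Scaled instead to all mid-range counts, which sets the mid-range total equal in all replicates, 10 bins were higher and 2 lower in erythroid cells at HS2, and 19 higher and 5 lower at beta CTCF. Over the chromosome, 628 of 2362 bins were then called at HS2 and 550 of 2678 at beta CTCF. The share called in the mid-range was thus below that of all bins at HS2 and above it at beta CTCF. The median log2 change over all bins tested was then 2.47 and 2.12. Whether a bin was called lower therefore depended on this scaling, with which most of the lower calls were lost. The 10 bins then called higher at HS2 all lay at least 1500 kb from the viewpoint. At beta CTCF, 10 of the 11 on the lower side and 5 of the 8 on the higher side lay beyond 1400 kb. The median log2 change over the mid-range bins stayed negative with that scaling, at -0.31 at HS2 and -0.25 at beta CTCF.

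The calls stopped near 1.5 Mb. Between 200 kb and 1.5 Mb, 44 of 52 bins were lower in erythroid cells from HS2 and 43 of 52 from beta CTCF. Between 1.5 and 2.0 Mb 1 of 20 bins was lower from HS2, on the higher side. From beta CTCF 4 of 20 bins were higher in that outer range, all on the lower side, and the other 16 were not called. These 4 bins are 5.56% of the 72 mid-range bins, close to the 4.48% called higher over all bins tested. The replicate groups did not overlap in 56 of 72 bins at HS2 (54 with erythroid below) and 59 of 72 at beta CTCF (50 with erythroid below), against 25.8% and 29.6% of all bins tested.

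**Figure D3:**
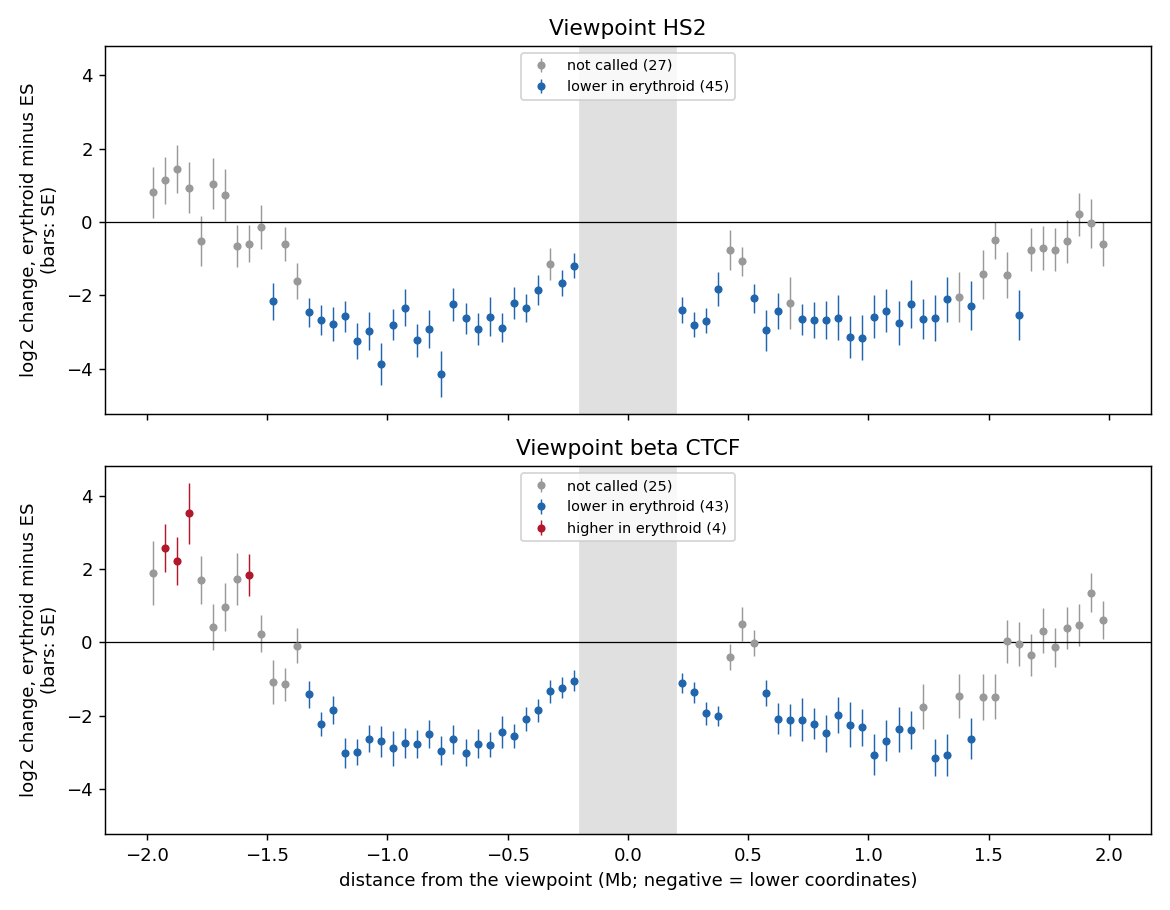
log2 change of each 50 kb bin, erythroid minus ES (vertical axis), with its SE as a bar, against distance from the viewpoint in Mb (negative: lower coordinates); blue bins were called lower in erythroid cells, red bins higher and grey bins neither. The 45 blue bins at HS2 and 43 at beta CTCF lie within 1.7 Mb of the viewpoint, and the 4 red bins lie beyond 1.5 Mb on the lower side of beta CTCF.

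The bins with the largest changes at HS2 lay on the lower side between 750 kb and 1.15 Mb, with 1 on the higher side. The bin at chr7:110209846-110259845, 750 to 800 kb away, had 0.244, 0.415 and 1.78 contacts per 1000 chromosome 7 pairs in the erythroid replicates and 11.1, 19.3 and 13.7 in the ES replicates. It fell by 4.15 on the log2 scale (SE 0.63, edgeR adjusted p = 0.000306), by 5.47 without erythroid replicate 3, and by 2.24 when scaled to all mid-range counts. The bin at chr7:109959846-110009845, 1000 to 1050 kb away, had 0.846, 0.543 and 0.530 in erythroid and 6.68, 15.2 and 6.34 in ES cells, and fell by 3.88. Every ES replicate was above every erythroid replicate in both. The bins at chr7:109859846-109909845 and chr7:110109846-110159845 fell by 3.24 and 3.23, and with the scaling to mid-range counts, where they fell by 1.27 and 1.25, neither was called. On the higher side chr7:111959847-112009846 fell by 3.16, from 7.09, 5.06 and 5.52 in ES to 0.569, 0.399 and 0.989 in erythroid replicates, and was likewise not called with that scaling.

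At beta CTCF the largest changes were spread over both sides. On the higher side, chr7:112205490-112255489 had 1.95, 0.583 and 1.19 in erythroid and 6.41, 15.8 and 10.7 in ES replicates and fell by 3.15. Its neighbour chr7:112255490-112305489 fell by 3.08, and chr7:111955490-112005489, which nearly coincides with the higher-side bin named for HS2, by 3.07. These 3 bins were not called when scaled to mid-range counts. On the lower side, chr7:110255489-110305488 had 4.04, 2.67 and 2.74 in erythroid and 15.7, 33.8 and 26.8 in ES replicates. It fell by 3.01 (SE 0.36, edgeR adjusted p = 4.49e-07). The bin chr7:109755489-109805488 fell by 3.01 as well, and both lower-side bins were also called with that scaling, at falls of 1.40.

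The 4 bins higher in erythroid cells were chr7:109105489-109155488, with a log2 change of 3.51 (SE 0.83, edgeR adjusted p = 0.00683), chr7:109005489-109055488 with 2.57, chr7:109055489-109105488 with 2.21 and chr7:109355489-109405488 with 1.83. In the first, the erythroid replicates had 2.97, 3.48 and 1.99 and the ES replicates 0.386, 0.0171 and 0.318; ES replicate 2 rested on a count of 1. In the last, the erythroid replicates had 6.40, 4.71 and 3.46 and the ES replicates 2.15, 1.08 and 0.848. The first was called in all 16 other settings tried. The others were lost in 4, 8 and 11 of the 16, the second at an adjusted p of 0.0641 with the whole table as library size and the last at 0.254. Without ES replicate 1 the third was lost, with a log2 change of 2.07 (edgeR adjusted p = 0.0611).

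A bin can also stand out against the decay of its own cell type, which is a description with no test. For this the decay was fitted separately to each side of each replicate. Residuals on the lower and the higher side therefore refer to different curves. In ES cells the largest mean residuals over the fitted decay from HS2 were in 3 neighbouring bins between chr7:109609846 and 109759845, at 1.19, 0.98 and 0.91 on the log2 scale. From beta CTCF they were in chr7:109805489-109855488, at 1.44 with levels of 15.8, 44.2 and 36.2, in chr7:109655489-109705488, at 1.32, and on the higher side in chr7:112205490-112255489, at 1.05. In erythroid cells the largest residuals lay far out on the higher side. They were 1.92 in chr7:112855490-112905489 from beta CTCF, where the level was 5.94, 4.88 and 6.80, and 1.51 in chr7:112859847-112909846 from HS2, nearly the same place, where it was 2.64, 4.12 and 4.49. The ES replicates had 2.14, 3.78 and 0.971 in that bin from beta CTCF. Other large erythroid residuals from HS2 were 1.27 at chr7:112509847-112559846 and 1.14 at chr7:111459847-111509846.

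Part of the unevenness between bins followed how many fragments they held. The mid-range held 11665 distinct fragments at HS2 and 13475 at beta CTCF, with a median length of 169 and 165 bp and 102 to 231 and 120 to 242 fragments per bin. Across the 72 bins, which share the libraries, the correlation of the log2 level with the number of fragments was 0.63 in erythroid and 0.83 in ES cells at HS2, and 0.66 and 0.56 at beta CTCF. Fragments that were never observed are not listed, so this number itself depends on the contacts.

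HS2 and beta CTCF were compared within replicates, since both viewpoints were captured from the same libraries. Mid-range pairs were fewer from HS2 in 6 of 6 replicates, by a mean of 7.65 ± 2.76 per 100 chromosome 7 pairs (exact two-sided sign-flip p = 0.03125, the smallest that 6 replicates allow). Over the 24 viewpoint comparisons made in this way, the smallest Benjamini-Hochberg adjusted p was 0.0577, so none passed the correction. The decay fitted over the full mid-range was shallower from HS2 in 6 of 6, with exponents 0.19 ± 0.08 higher (exact p = 0.03125, adjusted 0.0577). The comparison of viewpoints was not repeated with other decay limits. The exponent difference was 0.26 ± 0.03 in erythroid and 0.13 ± 0.05 in ES cells. The asymmetry did not order the viewpoints, with a mean difference of 0.04 ± 0.31 and 3 of 6 replicates in either direction (exact sign-flip p = 0.8125). The 3 positive differences were those of the erythroid replicates and the 3 negative ones those of the ES replicates.

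Whether the change between cell types differed between the viewpoints was tested bin by bin as an interaction on a common 50 kb grid. With edgeR, 0 of 70 mid-range bins passed an adjusted p under 0.05, against 0.128% of 2338 bins tested on the chromosome. An unadjusted p under 0.05 was reached by 14 of the 70 bins, and with DESeq2 0 passed and 4 reached an unadjusted p under 0.05. DESeq2 called 1 of all 2338 bins. The share of all bins that reached an unadjusted p under 0.05 was not computed. The median log2 interaction with edgeR was -0.59 over the mid-range bins and -0.33 over all bins tested. Negative values mean a lower log2 change, erythroid minus ES, at HS2 than at beta CTCF.

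The second fragment of each pair shows where the viewpoint's other contact lay when it met the mid-range. With adjacent fragments counted, the most frequent position in both cell types was the mid-range on the same side. This class includes the pairs of adjacent fragments described below, which need not be separate contacts. By the group means, the class leads without them in ES cells only. In erythroid cells it then falls below the partners beyond 2 Mb at both viewpoints. The ranking per replicate was not computed without adjacent pairs. With them, the same-side class took 38.4%, 33.1% and 44.1% of mid-range pairs from HS2 in erythroid cells, and 48.3%, 65.6% and 48.3% in ES cells. The values from beta CTCF were 37.8%, 36.8% and 44.5% in erythroid and 45.0%, 65.8% and 47.0% in ES cells. All ES replicates were above all erythroid replicates, and ES replicate 2 was the highest. The mid-range on the other side took only 1.69% in erythroid and 2.69% in ES cells at HS2, and 2.00% and 3.41% at beta CTCF.

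Partners far out on the chromosome took less in ES cells. Fragments of chromosome 7 beyond 2 Mb were the partner in 19.5%, 23.8% and 20.5% of erythroid and 10.7%, 6.88% and 12.8% of ES pairs at HS2, and in means of 21.0% and 10.1% at beta CTCF, without overlap at either viewpoint. Another chromosome was the partner in 21.8% of erythroid and 13.8% of ES pairs at HS2, and in 17.6% and 14.3% at beta CTCF, and replicates of the cell types overlapped at both viewpoints.

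**Figure D4:**
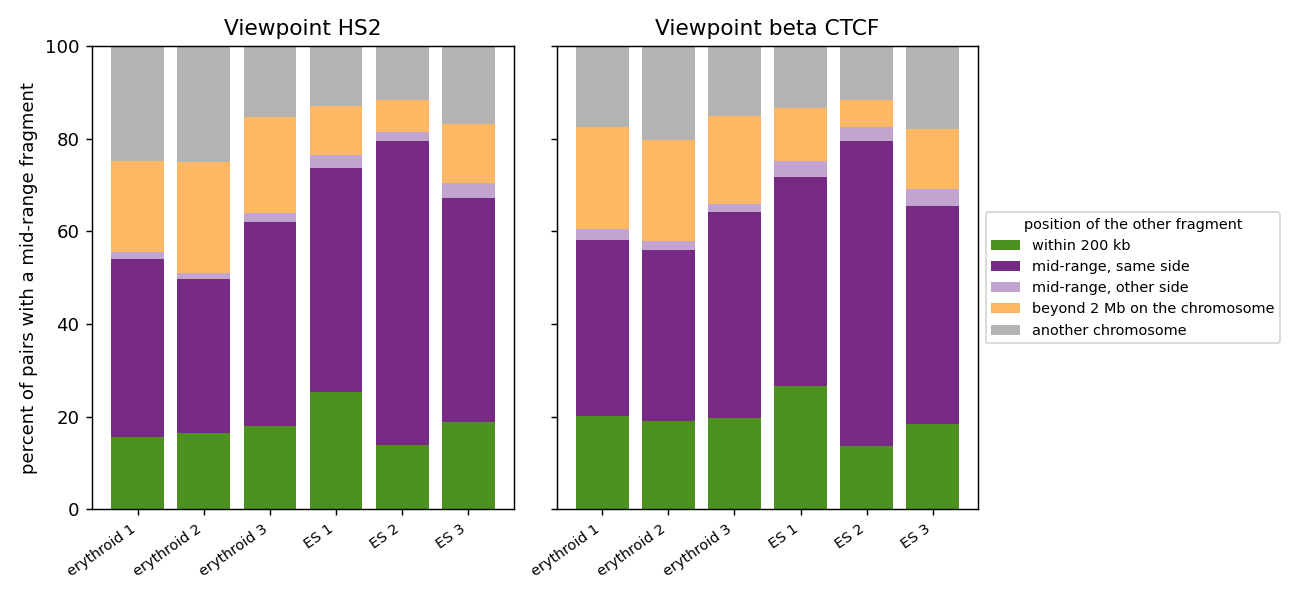
Percent of the pairs with a mid-range fragment (vertical axis, stacked to 100) by the position of the other fragment, for each of the 6 replicates and each viewpoint. Same-side mid-range partners, in purple and with adjacent fragments included, are the largest class in every replicate. Partners beyond 2 Mb, in orange, take 19.0% to 23.8% in erythroid and 5.81% to 12.98% in ES replicates.

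The share of partners near the viewpoint did not tell the cell types apart. Among mid-range pairs with both fragments on chromosome 7, the partner lay within 200 kb in 20.7%, 22.0% and 21.2% of erythroid and 29.1%, 15.8% and 22.6% of ES pairs at HS2 (exact permutation p = 0.7). At beta CTCF it lay there in 23.9% ± 0.634 of erythroid and 22.9% ± 7.59 of ES pairs (exact permutation p = 0.7). The ES replicates spread more widely than the erythroid ones, with ES replicate 1 highest and ES replicate 2 lowest at both viewpoints. The sign of the difference depended on the ES replicates used. Erythroid minus ES was 2.10 percentage points at HS2 and 4.92 at beta CTCF without ES replicate 1, and -4.54 and -2.66 without ES replicate 2.

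Where the partner was near, its place within the 200 kb was read as well. At HS2 it lay within 50 kb of the viewpoint in 71.4% of erythroid and 63.0% of ES pairs, and at beta CTCF in 44.5% and 49.6%. For pairs with both fragments within 200 kb the share was taken over both fragments of each pair. It was 82.5% in erythroid and 65.4% in ES cells at HS2, and 43.6% and 47.7% at beta CTCF. In erythroid cells at HS2 the value for near partners of mid-range fragments was the lower one in 3 of 3 replicates. The means had the same order in ES cells at HS2 and the opposite order in both cell types at beta CTCF. The near partner lay on the side of its mid-range fragment in 49.8% of erythroid and 53.1% of ES pairs at HS2, and in 48.5% and 56.4% at beta CTCF, with no overlap at either viewpoint. When the mid-range fragment of beta CTCF was on the higher side, the near partner was on the lower side in 48.0%, 55.4% and 43.4% of erythroid and 39.4%, 22.3% and 27.1% of ES pairs.

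Many mid-range pairs joined fragments that lie next to each other on the chromosome. Of pairs with both fragments in the mid-range, 54.3% in erythroid and 43.9% in ES cells were adjacent fragments at HS2, and 49.2% and 38.7% at beta CTCF. Adjacent fragments need not be separate contacts of the viewpoint, so measures of pairs are given below for fragments farther apart too. Fragments more than 100 kb apart made up 12.4% and 18.9% of these pairs at HS2 and 14.3% and 22.7% at beta CTCF. Among pairs over 1 kb apart, the median separation was 66.7 kb in erythroid and 71.6 kb in ES cells at HS2, and 70.0 kb and 88.6 kb at beta CTCF.

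The preference for the same side was set against the share that the frequencies of the sides alone would give. It exceeded that share by 43.6 percentage points in both cell types at HS2 (exact permutation p = 1), and by 44.7 in erythroid and 40.4 in ES cells at beta CTCF (exact permutation p = 0.1). For fragments more than 100 kb apart the excess was smaller, 13.9 in erythroid and 21.3 in ES cells at HS2, without overlap (exact permutation p = 0.1, the smallest possible). At beta CTCF it was 14.6 and 16.0, where the groups overlapped (exact permutation p = 0.9).

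Reads in which both fragments lay in the mid-range were more frequent than expected from the frequency of mid-range fragments among all fragments of chromosome 7, and the excess was larger in erythroid cells. This measure was added after the data were seen and leaves out pairs at most 1 kb apart. From HS2 the log2 ratio of observed over expected was 2.43, 2.05 and 2.01 in the erythroid and 0.93, 0.81 and 0.70 in the ES replicates. From beta CTCF it was 1.63, 1.68 and 1.75 in erythroid and 0.87, 0.68 and 0.55 in ES cells. The groups did not overlap (exact permutation p = 0.1 at each viewpoint). With fragments more than 100 kb apart the means were 0.93 in erythroid and 0.25 in ES cells at HS2 and 0.68 and 0.24 at beta CTCF. The expected number grows with the frequency of mid-range fragments, which was higher in ES cells. The ratio cannot exceed the inverse of that frequency, so its ceiling was lower in ES cells. The larger excess in erythroid cells therefore cannot be told apart from the difference in frequency. The ratio was higher at HS2 than at beta CTCF in 6 of 6 replicates, by 0.30 ± 0.27 (exact sign-flip p = 0.03125, adjusted 0.0577). Mid-range pairs were also fewer at HS2 in 6 of 6 replicates, so the same limit holds.

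The alpha-globin locus on chromosome 11, captured from the same libraries at the enhancer R2 and at a CTCF site, served to show where the beta locus differs. In erythroid cells the mid-range took about as much at HS2 as at R2, 13.7 ± 0.286 and 14.5 ± 1.15 pairs per 100 pairs with both fragments on the viewpoint's chromosome. In ES cells it took 47.7 ± 7.07 at HS2 and 26.1 ± 4.38 at R2. The difference was -0.757 ± 1.20 in erythroid and 21.6 ± 5.51 in ES replicates, without overlap (exact permutation p = 0.1). Between the CTCF sites the beta value was higher in 6 of 6 replicates, by 3.65 ± 1.33 in erythroid and 31.0 ± 8.12 in ES cells (exact sign-flip p = 0.03125 over all 6, adjusted 0.0577).

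The decay fitted over the full mid-range was shallower at the beta locus in 6 of 6 replicates for both pairs of viewpoints, with exponents 0.56 ± 0.13 higher at HS2 than at R2 and 0.50 ± 0.06 higher at beta CTCF than at the alpha CTCF site (exact sign-flip p = 0.03125 each, adjusted 0.0577). Other decay limits were not tried for these comparisons. Partners within 200 kb were less frequent at the beta locus in 6 of 6, by 12.5 ± 4.34 percentage points for HS2 against R2 and 14.5 ± 3.76 for the CTCF sites (exact sign-flip p = 0.03125 each, adjusted 0.0577). The loci differ in gene content and chromosome, and which of these goes with the differences was not tested.

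Over 26 comparisons of erythroid with ES replicates made by exact permutation on measures of a single beta viewpoint, the smallest Benjamini-Hochberg adjusted p was 0.144. Permutation tests of differences between viewpoints were not among these 26 and were not adjusted. No such comparison of either kind could pass 0.05 with 3 replicates a group.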

How the data were processed

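The deposited values are whole-number counts of each pair of NlaIII fragments in each of 17 libraries, per the file headers. Per the submitters' processing notes the authors used Trim Galore, Bowtie and the build mm9; removal of duplicates and calling of fragments are not given in the sources used here. Coordinates are mm9 and 1-based. For fragments off chromosome 7 only the chromosome name was used. No sequence was printed.

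Technical replicates were summed. Each mid-range fragment added 1 to its 50 kb bin, scaled to 1000 pairs with both fragments on chromosome 7. Bins were tested with edgeR 4.0.16 (R 4.3.3) with that number as library size and no further factors; DESeq2 1.42.0 was an alternative. Single values were compared by exact permutation (Python 3.11.15). Named bins are, per viewpoint, the 5 largest log2 changes in each direction among called bins whose groups do not overlap, and the 3 largest residuals over the decay per cell type. The set of contacts, the lists and the tests were chosen with earlier results of these data known. Other library sizes, TMM factors, pairs counted once per library, pairs on chromosome 7 only, other decay limits and omitted replicates were tried. Gene names on the higher side are not reported here.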

Additional observations from a re-analysis of the deposited data

Results flagged for a closer look

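The difference between the beta viewpoints in side balance ran opposite ways in the cell types. HS2 minus beta CTCF in the log2 ratio of lower over higher contacts was 0.28, 0.40 and 0.24 in the erythroid replicates and -0.06, -0.31 and -0.32 in the ES replicates, a difference of 0.53 between the means. Results were flagged because all erythroid replicates had the opposite sign to all ES replicates. Groups chosen in this way cannot overlap. The exact permutation p of 0.1, the smallest possible, was therefore fixed by the choice and lends no support.

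The outer drop, the log2 ratio of contacts at 1.0 to 1.5 Mb over 1.5 to 2.0 Mb, was lower at HS2 than at R2 in all erythroid replicates (-1.39, -0.94 and -1.15) and higher in all ES replicates (0.80, 1.23 and 1.09), which differ by -2.20 in the mean. Between beta CTCF and the alpha CTCF site it was -1.33, -1.71 and -1.04 in erythroid and 1.57, 2.23 and 2.29 in ES cells, which differ by -3.39. The excess of pairs with both fragments in the mid-range was slightly higher at beta CTCF than at the alpha CTCF site in erythroid replicates (0.002, 0.08 and 0.09) and lower in ES replicates (-0.39, -0.78 and -0.61), which differ by 0.65. The exact permutation p was 0.1 for each of these, again fixed by the way they were chosen. The ceiling of this ratio falls as mid-range fragments become more frequent, and mid-range pairs were more frequent at beta CTCF in all replicates.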

How the results depend on the processing

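The counts of called bins stayed within 1.5 times the reported ones in 15 of 16 other settings at each viewpoint, at 34 to 53 bins from HS2 and 38 to 58 from beta CTCF, leaving out replicates included (34 to 46 and 38 to 47). The exception was a library size of all mid-range counts, which removes the difference in the mid-range total: it called 12 bins at HS2 (10 higher and 2 lower in erythroid cells) and 24 at beta CTCF (19 higher and 5 lower). Over all bins tested it called 628 of 2362 at HS2 and 550 of 2678 at beta CTCF. The median log2 change over all bins moved with the scaling, from 0.53 at HS2 and 0.63 at beta CTCF to -0.22 and 0.21 with the whole table as library size and 2.47 and 2.12 with mid-range counts. The interaction called 1 mid-range bin with no minimum count, 7 with each fragment pair once per library, 1 with pairs on chromosome 7 only, and 0 to 2 when a replicate was left out. Over all bins tested, these settings called 6 of 2832, 11 of 1065 and 5 of 1867, and 1 to 7 when a replicate was left out. All of the mid-range calls had a lower log2 change at HS2 than at beta CTCF. The exponent difference was 0.68 at HS2 and 0.85 at beta CTCF by least squares on log10 counts, and -0.25 and -0.34 at 300 kb to 1.5 Mb. For fragments over 100 kb apart, added after the data were seen, the same-side difference was -7.44 at HS2 and -1.32 at beta CTCF, and the excess of pairs within the mid-range differed by 0.68 and 0.43. The HS2 minus beta CTCF asymmetry was -0.064 (exact sign-flip p = 0.5) with each fragment pair once per library. Of the 14 named bins none changed sign. With the mid-range library size, 6 bins named as lower lost their call. Replicate numbers did not pair the samples: same-numbered erythroid and ES deviations correlated at 0.08, 0.14 and -0.07 at HS2 and -0.06, -0.08 and -0.06 at beta CTCF, and with the replicate number as a block 46 and 44 bins were called. Where a value moved, the cause was not tested.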
